A study of Mus musculus with 2 samples.

Results

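The sites described here were accessible DNA elements of the mouse adrenal gland that were listed in biological replicate 1 and had no counterpart in biological replicate 2. They were chosen from measured values: peaks of the shorter deposited list of replicate 1, more than 1 kb from every GENCODE M21 transcription start, with a deposited peak height of at least 1.0, that overlapped neither a peak of the longer replicate 2 list nor any stretch of bases that replicate 2 listed at a false discovery rate (FDR) under 0.05. Of the 98813 peaks of that list, 28433 were distal and reached the height, and 2283 of these (8.03%) met the whole rule. Because height and absence from replicate 2 selected the sites, both are given as descriptions only.

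DNase-seq was done on adrenal glands of B6CASTF1/J mice, hybrids with a C57BL/6J and a CAST/EiJ parent. All mice were female and 10 days old, each sample was labelled as coming from 3 females, and no treatment was named. The 2 samples formed 1 group, and the labels do not say whether they shared animals, so the differences below are between 2 libraries and not between conditions. Replicate 1 held 98813 peaks in its shorter list, 159343 in its longer list and 339116 footprints, against 55135, 93845 and 241536 in replicate 2. Read depth was not used here, and signal from CAST/EiJ alleles was placed on the C57BL/6J reference, mm10.

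DNase I cuts DNA where nucleosomes have been displaced, and a peak of cutting far from a start usually marks an enhancer, a silencer or an insulator. In the adrenal cortex, the nuclear receptor SF-1 (encoded by Nr5a1) binds such elements as a monomer and drives the genes of steroid synthesis, and AP-1 dimers of FOS and JUN proteins bind many enhancers that respond to hormones and growth factors. CTCF binds insulators and loop anchors that are open in most cell types. A footprint is a short stretch inside a peak that is cut less than its surroundings, as happens under a bound protein.

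SF-1 and AP-1 motifs were more frequent in the replicate 1-only sites than in sites that both replicates held. Of the 10 highest sites, 5 held an SF-1 match (CAAGGTCA or CAAGGCCA) or an AP-1 match (TGANTCA) within 75 bp of the peak centre. Over all 2283 sites the share was 38.5%. Those 5 are shown first, followed by the highest site of all, near Plxnb1, which held neither. Here and below, a site is named for the nearest protein-coding start, at any distance. That start lay 46314 bp away for Lrrc74a and 90340 bp away for Zbtb40. Each sequence is the plus strand of mm10 (GRCm38), 5′ to 3′, from the RefSeq copy of the assembly, with matches to the consensuses of SF-1, AP-1 and GATA factors (AGATAAG for the last) on either strand in capitals. A match describes the letters and does not show binding.
Lrrc74a, chr12:86787321-86787520: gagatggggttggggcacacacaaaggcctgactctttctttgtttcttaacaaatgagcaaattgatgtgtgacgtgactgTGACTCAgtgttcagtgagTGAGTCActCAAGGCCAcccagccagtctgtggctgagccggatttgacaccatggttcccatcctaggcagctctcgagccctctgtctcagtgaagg
Adamts15, chr9:30903401-30903580: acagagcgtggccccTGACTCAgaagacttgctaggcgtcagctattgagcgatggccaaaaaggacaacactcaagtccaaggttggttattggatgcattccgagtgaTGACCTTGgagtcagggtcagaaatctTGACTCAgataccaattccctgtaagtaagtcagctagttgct
AI413582, chr17:27562261-27562440: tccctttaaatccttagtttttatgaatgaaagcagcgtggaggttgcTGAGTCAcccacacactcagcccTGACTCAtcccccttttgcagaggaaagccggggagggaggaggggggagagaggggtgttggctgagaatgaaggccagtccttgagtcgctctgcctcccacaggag
Actn4, chr7:28952941-28953100: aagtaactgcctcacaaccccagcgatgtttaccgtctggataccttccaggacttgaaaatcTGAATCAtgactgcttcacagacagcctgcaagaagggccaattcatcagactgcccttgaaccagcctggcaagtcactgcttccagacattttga
Zbtb40, chr4:137139141-137139340: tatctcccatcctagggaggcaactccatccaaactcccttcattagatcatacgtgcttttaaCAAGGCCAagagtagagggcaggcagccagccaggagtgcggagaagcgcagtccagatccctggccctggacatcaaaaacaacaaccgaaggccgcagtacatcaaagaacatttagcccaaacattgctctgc
Plxnb1, chr9:109099041-109099240: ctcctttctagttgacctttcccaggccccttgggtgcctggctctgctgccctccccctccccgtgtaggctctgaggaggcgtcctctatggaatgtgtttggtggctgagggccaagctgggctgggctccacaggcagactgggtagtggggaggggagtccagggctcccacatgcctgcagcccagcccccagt

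In the site near Lrrc74a the 2 AP-1 matches and the SF-1 match began at bases 83, 102 and 111, and in the site near Adamts15 an SF-1 match at base 111 lay between AP-1 matches at bases 16 and 138. The site near AI413582 held 2 AP-1 matches, that near Actn4 held 1, and that near Zbtb40 held 1 SF-1 match. A further set shows sites near genes of the cortex, and was chosen after the values were seen, for the SF-1 matches. They lay near Cyp11a1, whose enzyme makes pregnenolone from cholesterol, Fdxr, whose reductase passes electrons to ferredoxin, and Nr5a1 itself. For Nr5a1 the central 300 bp of a site of 400 bp are printed.
Cyp11a1, chr9:58011642-58011932: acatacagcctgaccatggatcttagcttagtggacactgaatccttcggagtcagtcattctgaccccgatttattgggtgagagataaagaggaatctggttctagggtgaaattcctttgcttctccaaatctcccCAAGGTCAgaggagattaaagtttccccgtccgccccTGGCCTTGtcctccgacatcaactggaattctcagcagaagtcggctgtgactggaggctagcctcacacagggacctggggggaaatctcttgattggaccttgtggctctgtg
Fdxr, chr11:115282892-115282980: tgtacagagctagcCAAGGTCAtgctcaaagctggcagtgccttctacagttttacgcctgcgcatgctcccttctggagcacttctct
Nr5a1, chr2:38705071-38705370: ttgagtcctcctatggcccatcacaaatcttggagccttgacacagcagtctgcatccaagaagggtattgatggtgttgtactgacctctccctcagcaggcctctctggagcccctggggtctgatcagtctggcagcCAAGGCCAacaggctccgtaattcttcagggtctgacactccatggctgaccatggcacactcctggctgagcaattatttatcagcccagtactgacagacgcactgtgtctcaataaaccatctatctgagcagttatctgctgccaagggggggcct

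The Cyp11a1 site carried both forms of the SF-1 consensus, at bases 140 and 177. It lay in an intron, 2739 bp from the nearest Cyp11a1 start, with a height of 1.74 and 3 footprints. Here and below, an intron or exon is that of any annotated gene, which need not be the gene named. The Fdxr site was a peak of 89 bp in an exon, 5842 bp from the Fdxr start, with a height of 1.90 and 1 footprint. The Nr5a1 site lay in an intron, 5768 bp from the Nr5a1 start, with a height of 1.81 and 4 footprints.

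Most of the 2283 sites were low peaks. Their heights, a signal in the authors' units, ran from 1.00271, at which 71 sites lay, to 3.00145, with a median of 1.18. The 59 highest sites just below the height minimum stood at 0.996028. Sites just inside it lay near Dst, Nrp2 and Itm2c, and sites just outside it near Pald1, Bicc1 and Mmd. By height, 1395 sites lay from 1.0 to 1.25, 539 from 1.25 to 1.5, 300 from 1.5 to 2.0 and 49 at 2.0 or above. The share of distal replicate 1 peaks that met the rule fell across these bands, from 18.2% to 10.3%, 4.78% and 0.528%. Among the other distal peaks of at least 1.0, 20245 overlapped the shorter replicate 2 list and are called shared sites (median height 1.83). A further 5327 overlapped only the longer list and 578 only an FDR stretch.

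**Figure D1:**
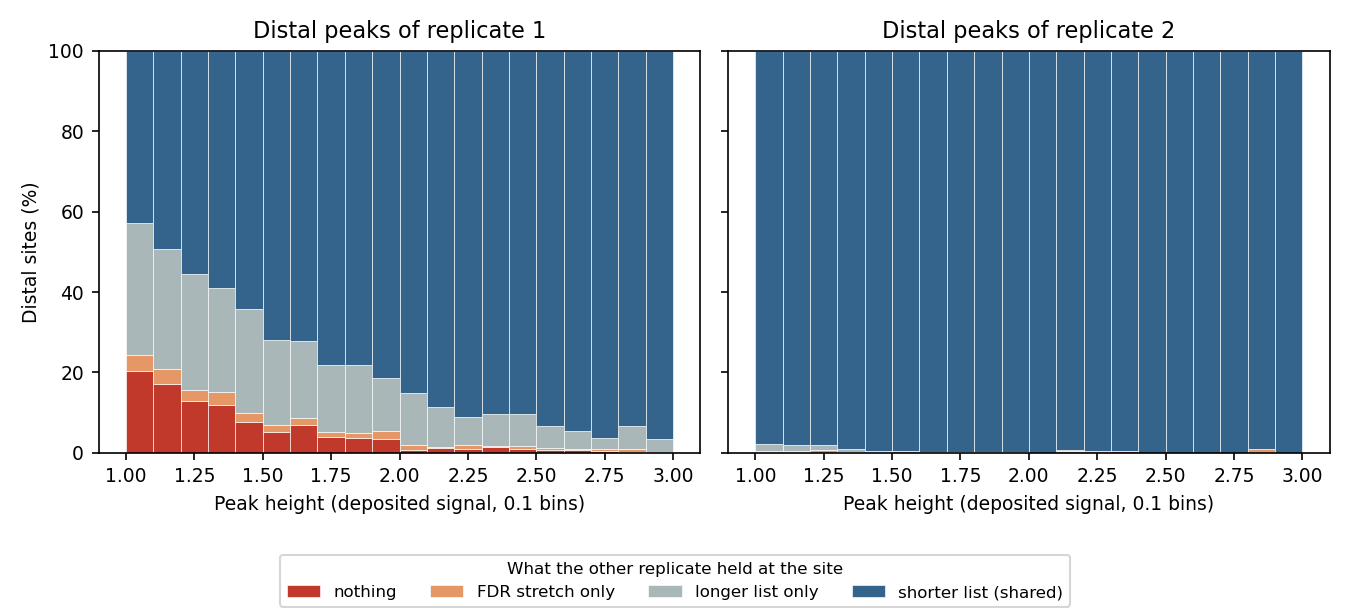
Bars give the percentage of distal peaks in each bin of deposited peak height (0.1 wide), for replicate 1 (left) and replicate 2 (right), coloured by what the other replicate held at the site. Red, the sites listed in 1 replicate only, takes its largest share in the lowest bins of replicate 1 and is almost absent from replicate 2, where 11 of 11117 sites are red.

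The mirrored rule found almost nothing. Of 11117 distal replicate 2 peaks of height at least 1.0, 11 (0.0989%) overlapped neither the longer replicate 1 list nor a replicate 1 FDR stretch. The highest of the 11 lay in an intron 2746 bp from the start of Acacb, an acetyl-CoA carboxylase gene, with a height of 2.36, and the second, with 1.84, in an intron 1801 bp from a Zfhx3 start. This asymmetry went with shorter replicate 2 lists and lower replicate 2 peaks: shared sites of replicate 1 height 1.0 to 1.25 had a median replicate 2 height of 0.713, and those of 2.0 or above 1.60. The part of depth or signal quality in it was not tested. In whole tissue, fewer cells of a type and less signal per cell cannot be told apart.

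By the rule, no replicate 1-only site overlapped a peak of the longer replicate 2 list or an FDR stretch, so only the size of the gaps is described. Gaps were not compared with those of other positions. The median gap to the nearest replicate 2 FDR stretch was 3473 bp (quartiles 1334 and 7980 bp), and 281 sites lay within 500 bp of one. To the longer replicate 2 list the median gap was 4161 bp, with 201 sites within 500 bp. That 0 sites held a replicate 2 footprint adds little, because the rule already barred any replicate 2 peak or FDR stretch there. Each site held replicate 1 bases of low FDR, which adds little because the rule required a replicate 1 peak of height at least 1.0. The lowest FDR per site had a median −log10 of 6.51, and the weakest site reached 3.07. Within heights of 1.0 to 1.25 that median was 5.97, against 10.3 in shared sites of the same height in replicate 1, so at like heights the replicate 1-only sites had the weaker FDR values.

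In replicate 1 itself, 2202 of the 2283 sites held a footprint (96.5%, 95% Wilson interval 95.6% to 97.1%), against 98.8% of shared sites (98.7% to 98.95%). These intervals, like all below, cover counting error only, and sites of 1 library are not replicates. The mean number of footprints was 2.34 per site against 3.05. At heights of 1.0 to 1.25 the shares were 95.6% (94.4% to 96.6%) and 97.1% (96.5% to 97.6%), whose intervals overlapped. The sites with the most footprints, 8 each, were those named for Cdyl, 277813 bp from its start, and Gpha2, 9780 bp from its start. A further 7 sites held 7, among them sites near Qk, Hoxb8, Etfa and Nr5a1.

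Position differed as well. Introns held 60.4% of the replicate 1-only sites (58.4% to 62.4%), against 47.0% of shared sites (46.3% to 47.7%), and 31.8% lay between genes against 45.4%. Introns also held 56.6% (52.5% to 60.6%) of sites with only an FDR stretch and 56.5% (55.2% to 57.8%) of sites in the longer list only. A high intron share was thus not particular to the replicate 1-only sites. Exons held like shares, 7.71% of replicate 1-only and 7.59% of shared sites. At heights of 1.0 to 1.25 the intron shares were 61.2% and 48.8%, so the difference was present among peaks of like height. The median distance to a start was 7358 bp, against 9520 bp for shared sites. Peaks were 180 bp wide at the median against 200 bp, and the median GC content was 51.2% against 53.5%. At heights of 1.0 to 1.25 the GC medians were closer, at 51.25% and 52.1%.

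Few sites lay mostly in repeats, although 46.4% held at least 1 soft-masked base, as did 46.7% of shared sites. Only 2.54% (1.97% to 3.27%) were soft-masked over at least 50% of their bases, against 1.52% (1.36% to 1.70%) of shared sites, and at heights of 1.0 to 1.25 the shares were 2.37% and 3.05% with overlapping intervals. In 2.32% (1.78% to 3.02%), at least 10% of the 32-base words occurred elsewhere in the genome, against 3.201% (2.97% to 3.45%) of shared sites. Sites with recurring words were thus a small part of the set, with those near Cyp21a1 among them.

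The sites lay on all autosomes and on the X chromosome. The share of distal replicate 1 peaks that met the rule ran from 6.40% on chromosome 18 to 9.51% on chromosome 12 among autosomes, and was 4.28% (2.57% to 7.06%) on the X chromosome. Another replicate 1-only site lay within 10 kb of 20.3% of the replicate 1-only sites, and a shared distal site within 10 kb of 39.8%. The last share was like that of shared sites, of which 39.7% had another shared site within 10 kb. After sites that overlapped or touched were merged, 2277 of the 2283 remained.

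AP-1 was the most frequent of the 30 motifs searched. Of the 2283 sites, 623 held an AP-1 match within 75 bp of the centre (27.3%, 25.5% to 29.2%), against 9.30% (8.91% to 9.71%) of shared sites. Sites that reached only an FDR stretch or only the longer list of replicate 2 lay between, at 20.9% and 18.5%. Thus the share was highest where replicate 2 held nothing and lowest where it held a peak of the shorter list.

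An SF-1 match was found in 336 sites (14.7%, 13.3% to 16.2%), against 5.70% (5.39% to 6.03%) of shared sites, with 13.1% and 10.1% in the FDR-stretch and longer-list classes. Each form of the consensus showed the difference on its own: CAAGGTCA was in 6.18% against 2.39%, and CAAGGCCA in 9.11% against 3.43%. The nuclear receptor core word AGGTCA, which lies within CAAGGTCA and so is not a separate observation, was in 23.3% against 13.4%. GATA factors, which act in cortex and medulla, had a match (AGATAAG) in 73 sites (3.198%, 2.55% to 4.002%), against 1.38% (1.23% to 1.55%).

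CTCF showed the opposite. Its motif was in 40 of the 2283 sites (1.75%, 1.29% to 2.38%), against 14.4% (13.9% to 14.9%) of shared sites. It was in 3.75% of sites in the longer list only and in 1.38% (0.703% to 2.71%) of those with only an FDR stretch. A low CTCF share was thus not particular to the replicate 1-only sites. The E-box CAGGTG, which ZEB and TCF3 factors recognise, was in 6.75% against 12.1%, and in 5.54% of sites with only an FDR stretch. These letters can lie within the CTCF motif, and among sites without a CTCF match the shares were 6.55% (5.60% to 7.65%) and 9.87% (9.44% to 10.3%). The SP/KLF motif GGGGCGGGG was in 0.701% against 1.70%. The motif of REST, a repressor of neuronal genes, was in 0 sites, which allows a share of up to 0.131% (3 counts of the total; Wilson upper bound 0.168%), against 0.232% of shared sites. Of the 30 consensuses searched, 5 had an interval above that of shared sites (AP-1, both SF-1 forms, that core word and GATA), 4 had one below, and 21 had overlapping intervals, among them the E-boxes CAGCTG and CACGTG and the TEAD and RUNX motifs.

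**Figure D2:**
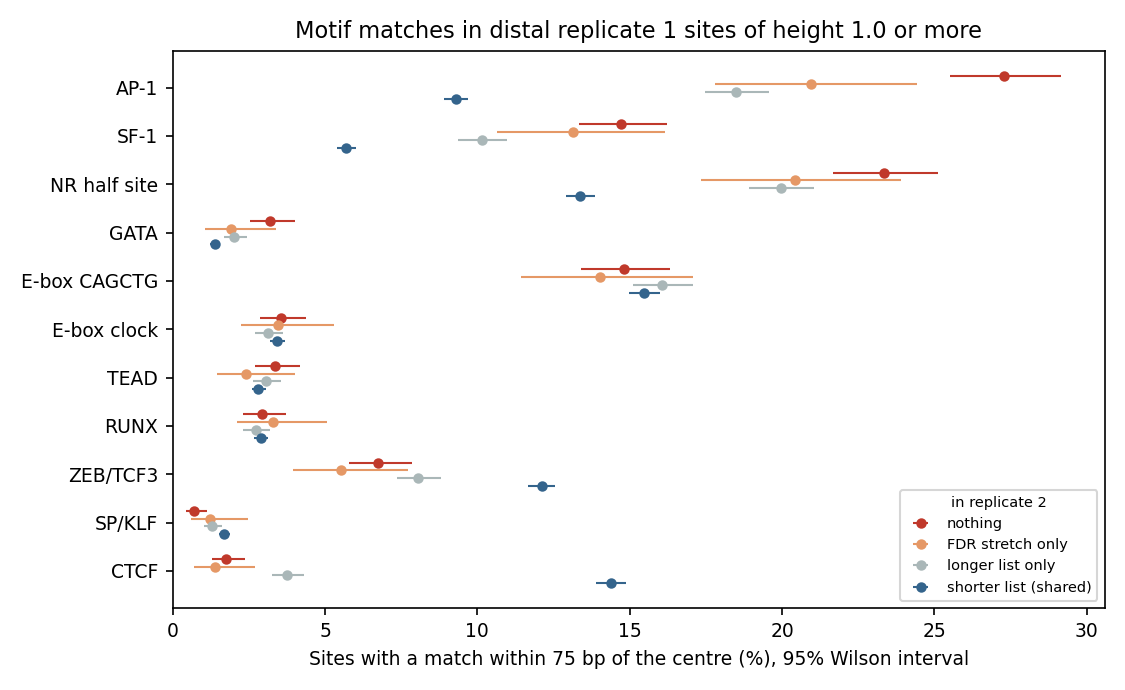
Points give the percentage of distal replicate 1 sites with a motif match within 75 bp of the peak centre and bars the 95% Wilson interval, by what replicate 2 held at the site. AP-1 runs from 27.3% in sites with nothing in replicate 2 to 9.30% in shared sites and SF-1 from 14.7% to 5.70%. CTCF is lowest in sites with only an FDR stretch (1.38%), with 1.75% where replicate 2 held nothing and 14.4% in shared sites.

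The AP-1, SF-1 and CTCF differences were present within each band of height. At heights of 1.0 to 1.25, AP-1 was in 26.5% of replicate 1-only sites (24.2% to 28.8%) and 7.84% of shared sites (upper bound 8.76%). SF-1 was in 13.8% (12.1% to 15.7%) against 4.76% (4.11% to 5.51%), and CTCF in 1.43% (0.930% to 2.20%) against 11.3% (10.3% to 12.3%). At heights of 1.5 to 2.0 the shares were 33.0% against 8.98% for AP-1 and 20.3% against 6.25% for SF-1. Of the 49 sites at 2.0 or above, 12 held AP-1, 10 held SF-1 and 0 held CTCF, which allows up to 6.12% by the limit of 3 counts (Wilson upper bound 7.27%). In each of the 4 bands the intervals of replicate 1-only and shared sites lay apart for AP-1, SF-1 and CTCF. The rarer motifs did not all do so: GATA was in 1.67% (0.714% to 3.84%) against 1.51% (1.204% to 1.902%) at heights of 1.5 to 2.0, SP/KLF in 0.717% (0.390% to 1.31%) against 0.980% (0.705% to 1.36%) at 1.0 to 1.25, and the CAGGTG intervals overlapped at 1.25 to 1.5 and at 1.5 to 2.0.

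**Figure D3:**
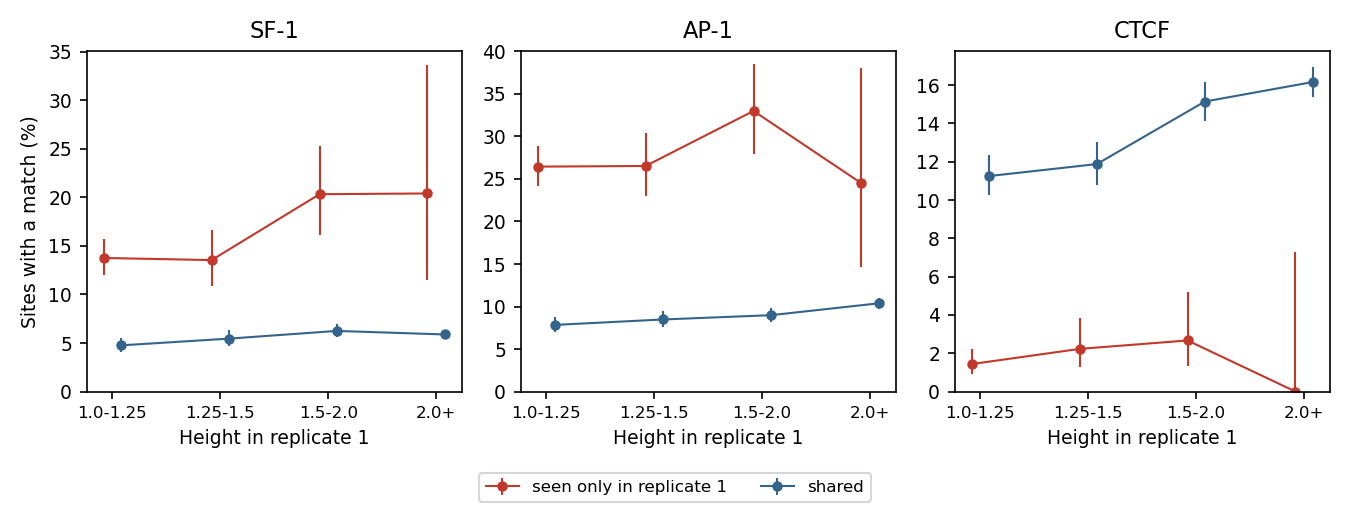
Points give the percentage of sites with a match to SF-1, AP-1 or CTCF in 4 bands of replicate 1 peak height and bars the 95% Wilson interval, for sites seen only in replicate 1 (red) and shared sites (blue). Red lies above blue for SF-1 and AP-1 and below it for CTCF in each band, with 49 red sites in the highest.

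The matches sat at the peak centres. In 150 bp windows centred 500 bp to each side of the replicate 1-only sites, SF-1 matches were in 3.09% of windows and AP-1 matches in 4.23%, close to the 2.98% and 4.31% beside shared sites, and CTCF was in 0.131% and 0.153%. The flanking sequence thus held the motifs at like rates in both classes. Within the central window, the median distance of an AP-1 match from the centre was 27 bp in replicate 1-only sites and 32 bp in shared sites, and that of an SF-1 match 26 and 30.5 bp.

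**Figure D4:**
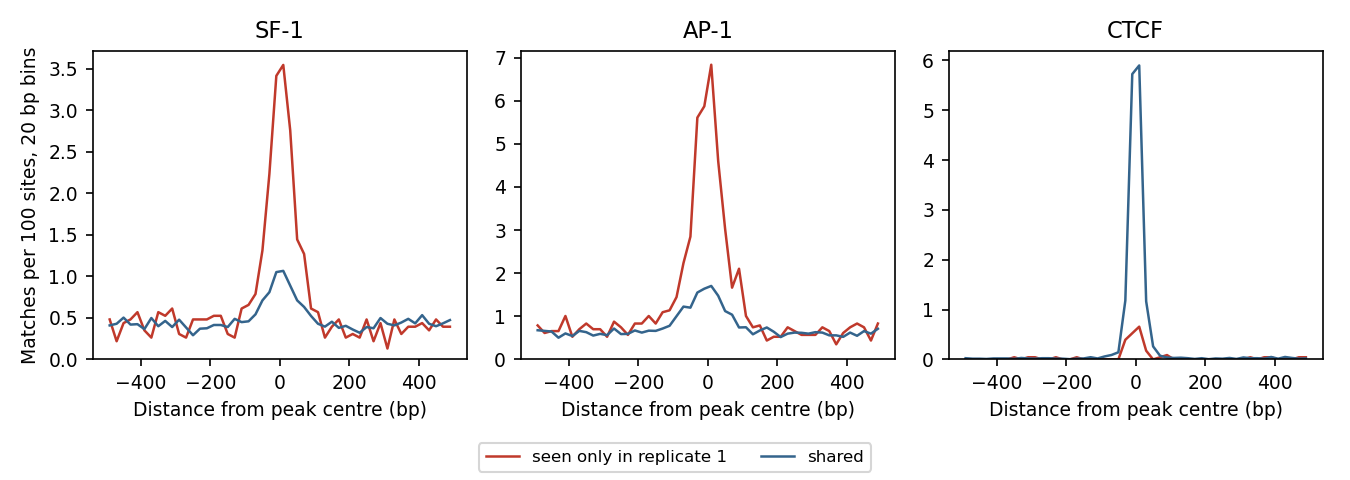
Lines give the number of motif matches per 100 sites in 20 bp bins by distance from the peak centre, for sites seen only in replicate 1 (red) and shared sites (blue). SF-1 and AP-1 rise at the centre of the red sites and CTCF at the centre of the blue ones, while beyond the peaks both lines lie at one level.

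Footprints covered SF-1 and AP-1 matches at like rates in both classes. Matches within 75 bp of the peak centre were counted, also where a narrow peak ended before that. Of 366 such SF-1 matches in replicate 1-only sites, 174 had their centre in a replicate 1 footprint (47.5%, 42.5% to 52.7%), against 605 of 1210 (47.2% to 52.8%) in shared sites. For AP-1 it was 135 of 720 (18.75%, 16.1% to 21.8%) against 20.4% (18.7% to 22.2%). The few CTCF matches were footprinted in 36 of 40 cases (90.0%, 76.9% to 96.04%), against 98.1% (97.5% to 98.5%). For the word CAGGTG the shares were 24.1% (18.1% to 31.2%) and 52.3% (50.4% to 54.2%), but at heights of 1.0 to 1.25 their intervals overlapped (21.8% to 40.5% and 39.3% to 48.6%). In that band AGGTCA matches were footprinted more often in replicate 1-only sites, 39.3% (34.3% to 44.6%) against 27.2% (23.5% to 31.2%). AGGTCA lies within CAAGGTCA, which was in 5.88% of replicate 1-only and 1.82% of shared sites of that band. SF-1 matches of either form were footprinted there in 47.2% and 40.7%. AGGTCA matches outside CAAGGTCA were not counted apart, so this is not a separate observation.

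SF-1 and AP-1 matches mostly marked different sites. Both were in 81 sites (3.55%, 2.86% to 4.39%), against 0.687% of shared sites, and at least 1 of them was in 878 (38.5%, 36.5% to 40.5%) against 14.3%. SF-1 was in 13.002% of the replicate 1-only sites with AP-1 and in 15.4% of those without, with overlapping intervals. No match to SF-1, AP-1, GATA or CTCF was found in 1323 sites (57.95%, 55.9% to 59.96%), against 71.1% (70.4% to 71.7%) of shared sites. By position, AP-1 was in 28.9% of intronic, 26.0% of intergenic and 19.9% of exonic replicate 1-only sites, against 9.89%, 9.33% and 5.53% of shared ones. SF-1 was in 207 of 1380 intronic sites and in 13.8% and 16.5% of intergenic and exonic ones, against 6.30%, 5.12% and 5.47%, so the difference was present in all 3 positions.

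A search of 3145 words of 7 bases, added after that of the motifs, gave the AP-1 word the highest ratio. TGACTCA was in 22.9% of replicate 1-only sites and 7.38% of shared sites. The lowest ratio was that of GCGCCAC, with 0.307% against 5.06%.

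Genes of steroid synthesis were the nearest genes of 20 of the sites. These were 26.3% (17.7% to 37.2%) of the 76 distal replicate 1 peaks of height at least 1.0 next to the 18 genes of that list, against 8.03% over all such peaks. Shares of the gene lists, here and below, were not compared at like heights. Over all distal replicate 1 peaks of height 1.0 to 1.25, 18.2% met the rule, which lies within the interval of the list. The 20 sites fell near 9 of the genes. None of the 3 distal peaks nearest to Star, the carrier of cholesterol to the inner mitochondrial membrane, reached the shorter replicate 2 list: 2 were replicate 1-only (heights 1.397 and 1.12) and 1 was in the longer list. Near Cyp11a1, 3 of 6 distal peaks met the rule, with heights of 1.89, 1.74 and 1.00. Near Fdxr, 2 of 5 did (1.91 and 1.90), near the lipase gene Lipe 3 of 7 (1.64, 1.48 and 1.37), and near Akr1b7 1 of 2 (1.18). The 1 distal peak near Soat1, which esterifies cholesterol, met the rule with a height of 1.14.

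Cyp21a1, the 21-hydroxylase gene, had 6 of its 7 distal peaks in the set. They lay together 5026 to 6562 bp from the nearest Cyp21a1 start and formed 2 runs of peaks that overlapped or touched. All were classed as intronic, in a gene that need not be Cyp21a1. Between 29.5% and 38.4% of their 32-base words occurred elsewhere in the genome, so the placement of reads there is uncertain. With overlapping sites merged, the steroid list held 16 sites of 72, and without Cyp21a1 it held 14 of 69 (20.3%, 12.5% to 31.2%). Other genes of the list had none: 0 of 16 distal peaks near Scarb1, the lipoprotein receptor that takes up cholesterol, 0 of 8 near Mc2r, the corticotropin receptor, 0 of 6 near Por, 0 of 4 near Fdx1 and 0 of 3 each near Stard4 and Mrap. Of the 16 peaks near Scarb1, 7 were shared, 8 were in the longer replicate 2 list only and 1 met an FDR stretch only, and 7 of the 8 near Mc2r were shared. The genes of the list thus differed in how many of their distal peaks met the rule.

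Regulators of the cortex held 12 of their 85 distal peaks in the set (14.1%, 8.26% to 23.1%), against 8.03% over all distal peaks. Nr5a1 supplied 5 of the 12, and without it the list held 7 of 80 (8.75%, 4.30% to 16.98%). For Nr5a1 all 5 distal peaks met the rule, with heights of 2.13, 1.81, 1.09, 1.05 and 1.03. The highest lay in an intron at chr2:38706721-38706980, 4208 bp from the start, with 4 footprints and a gap of 7371 bp to the nearest replicate 2 stretch. Wnt4, a signal of the outer cortex, had 1 of 6, and Znrf3, whose product removes Wnt receptors from the cell surface, 1 of 5. Among the 32 sites of the steroid and cortex lists, SF-1 matches were in 5 and AP-1 matches in 4. Over all replicate 1-only sites the shares were 14.7% for SF-1 and 27.3% for AP-1.

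Lists of other cell types varied in both directions on small counts. Chromaffin genes, which mark the medulla, had 0 of 36, which allows up to 8.33% by the limit of 3 counts (Wilson upper bound 9.64%). Capsule and fibroblast genes had 0 of 33, which allows up to 9.09% (Wilson upper bound 10.4%). No such limit lay below the 8.03% of all distal peaks. Endothelial genes had 7 of 39 (17.9%, 8.98% to 32.7%), near Eng, Egfl7, Kdr, Erg and Cdh5, the highest at 1.59 near Eng, a TGF-beta co-receptor of vessels. The 3 sites of the liver list, of 14, all lay near Ahsg. Adipocyte genes had 2 of 41, Schwann and sustentacular genes 1 of 23, lymphocyte genes 1 of 23, neuron genes 1 of 35, kidney genes 1 of 18, and myeloid and skeletal muscle genes 0 of 9 and 0 of 12. Whether cell makeup differed between the samples was not tested.

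**Figure D5:**
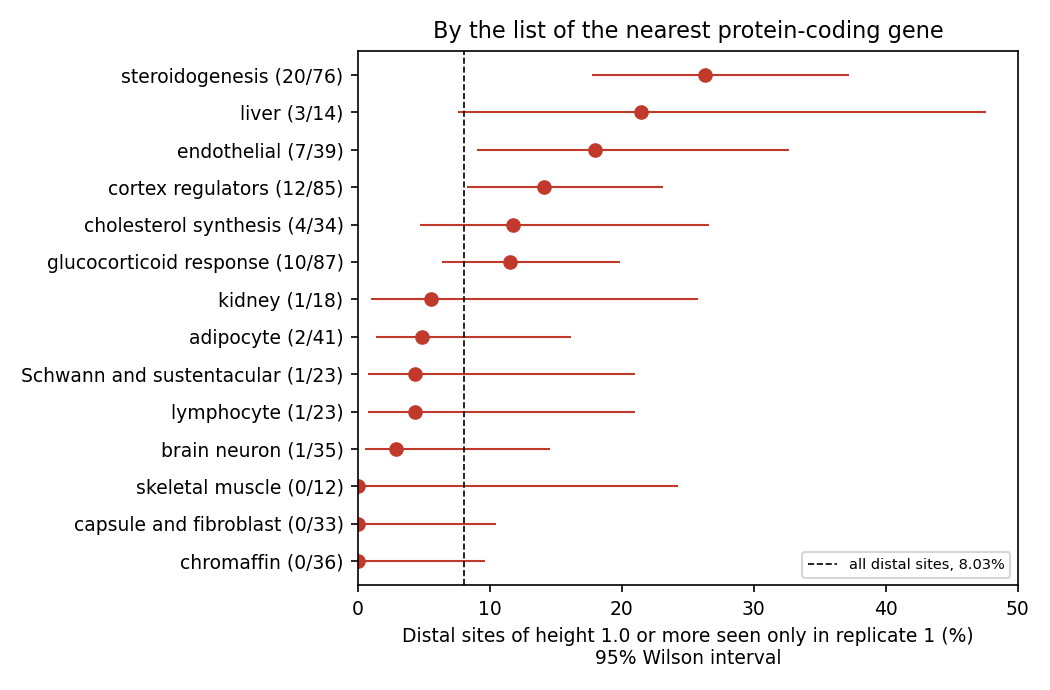
Points give the percentage of distal replicate 1 peaks of height at least 1.0 that were seen only in replicate 1, by the list of the nearest protein-coding gene (counts in brackets), and bars the 95% Wilson interval. The steroidogenesis list (20 of 76) lies highest, followed by the liver list (3 of 14). The chromaffin (0 of 36), capsule and fibroblast (0 of 33) and skeletal muscle (0 of 12) lists lie at 0. The dashed line marks 8.03% for all such peaks, not matched for height. The myeloid and erythroid lists, with 9 and 2 peaks, are left out.

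Genes of cholesterol synthesis had 4 of 34 (11.8%, 4.67% to 26.6%), 2 of them near Dhcr7, the last enzyme of the pathway, at 1.61 and 1.11. Genes that respond to glucocorticoids had 10 of 87 (11.5%, 6.36% to 19.9%). The highest lay near Dusp1, a phosphatase that restrains MAP kinases, at 1.95 with 2 AP-1 matches, and near Ddit4 at 1.66. AP-1 matches were in 5 of these 10 sites and SF-1 matches in 0, beside 27.3% and 14.7% of all replicate 1-only sites. The intervals of both lists held the 8.03% of all distal peaks.

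The 2283 sites had 1671 nearest genes, of which 1288 had 1 site and 24 had 5 or more. All 28433 distal replicate 1 peaks of height at least 1.0 had 9924 nearest genes. The genes with the most sites are named next, picked for their counts. Over all distal peaks 8.03% met the rule, and at heights of 1.0 to 1.25 18.2% did. Hspg2, which encodes the basement membrane proteoglycan perlecan, had 8 of 12 distal peaks in the set, among them the second-highest site, at chr4:137502881-137503080 with a height of 2.99. Gse1 had 8 of 46, Ndst1, an enzyme that modifies heparan sulfate, 7 of 12, the transcription factor gene Zfhx3 7 of 27, and the coregulator gene Zmiz1 7 of 46. The highest sites of all, after Plxnb1 (3.00, an intron 2331 bp from the start of this semaphorin receptor gene) and Hspg2, lay near Lrrc74a (2.88), Zbtb40 (2.77), Slc25a39, a mitochondrial carrier gene (2.75), Tmem178 (2.66), AI413582 and Actn4 (2.63 each), Adamts15 (2.56) and Tgfbr3, the betaglycan gene (2.54).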

How the data were processed

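DNase-seq files of 2 samples, 1 group, were used. Per the labels, the build was mm10. For the aligner and the callers of peaks and footprints, names were not given in the sources used here. Deposited peak heights are a signal per peak, set by the authors, whose normalisation is not given. Deposited FDR values are adjusted p-values per stretch of bases, all under 0.05. Deposited footprints all carry a p-value of 0.01. Neither file type holds reads, so depth is unknown. Members and lists were chosen with earlier results of these data known.

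Overlaps were of at least 1 bp. FDR stretches were merged, and the lowest FDR per site was found, with bedtools 2.31.1. Starts came from GENCODE M21 and sequence from RefSeq GRCm38.p6, whose 21 chromosome lengths were compared with mm10. Scripts used Python 3.11.15, numpy 2.4.6, pandas 2.3.3, scipy 1.17.1 and numba 0.67.0, and were tested on simulated data. The 30 consensuses were matched on both strands; CTCF, REST and others of 10 or more letters are given by name. Of 267 entries in 16 gene lists, 266 were found. Shares carry Wilson 95% intervals, and with 1 group no test over samples was possible. Named sites were the 10 highest, the 2 highest per list, the 5 with most footprints and 3 on each side of the height minimum. Other names, flanks, footprinted matches, motif pairs, 7-base words, lists without 1 gene, CAGGTG without CTCF sites and sequences near cortex genes were added after the data were seen. Alternatives varied height, distance, overlap, list, chromosomes and windows.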

Additional observations from a re-analysis of the deposited data

How the results depend on the processing

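With a height minimum of 0.75, 1.5 and 2.0 the rule found 5479, 349 and 49 sites, with median heights of 0.949, 1.698 and 2.31. It found 1461 sites over 5 kb from every start, and 3461 where 50% of a peak had to be covered to count as seen. Intron shares were 58.4% at 0.75 and 71.4% at 2.0. At 2.0, 0 of 49 sites were at least 50% soft-masked, a share of 0.0% that allows up to 6.12% (3 counts), and counting any masked base gave 46.4%. Repeated 32-base words were in 1.72% at 1.5, and in 0.219% where 50% of the words had to recur. Footprints were in 93.8% at 0.75, 99.4% at 1.5, 100% at 2.0 and 94.5% where FDR stretches were not used. SF-1 matches were in 20.3% at 1.5 and 20.4% at 2.0. The other 57 values of these results moved by less than their interval, quartiles or 1.5 times. AP-1 and CTCF alternatives were chosen after seeing the data: AP-1 was in 24.8%, 31.8% and 24.5% at 0.75, 1.5 and 2.0, and CTCF in 0.0% at 2.0. At each of these heights AP-1 and SF-1 shares stayed above those of shared sites, which were 8.97% to 10.4% and 5.56% to 6.01%. Leaving out a replicate could not be run because the rule needs both. No paired analysis was possible because there was 1 group.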
